A study of Mus musculus with 6 samples.

Results

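Immunoglobulin heavy-chain variable (*Ighv*) genes were examined in microinjected dorsal root ganglia (DRGs) of mice. They were taken as every row of the count table whose symbol starts with Ighv, which gave 185 of 48440 rows. RNA sequencing compared ipsilateral L3/4 DRGs of WT male mice in 2 groups of 3 libraries. One group had received AAV5-*Gfp*, a control virus that carries the green fluorescent protein gene, by microinjection into the unilateral L3/4 DRGs. The other had received AAV5-*V1+V2*, that is, AAV5-*V1* together with AAV5-*V2*, which carry variants V1 and V2 of the long noncoding RNA *NIS-lncRNA*. The deposited text gives harvest at 5 weeks and the comparison at 4 weeks after microinjection, and age and strain of the sequenced mice are not given in the labels. All 6 DRG samples had thus received an AAV5 virus, and each group had a preparation of its own, so that the transcripts and the preparation cannot be told apart. No label says that the replicates came from separate animals, and p-values therefore measure the spread between these samples, which may be technical.

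An *Ighv* gene encodes most of the variable domain of an antibody heavy chain. In a developing B cell, 1 *Ighv* gene is joined to a diversity and a joining segment, and that choice is kept by all descendants of the cell. The joined exon is transcribed and spliced to a constant region gene such as *Ighm* or *Ighg2c*, so that reads on *Ighv* genes come mainly from B cells and, in larger numbers per cell, from the plasma cells that secrete antibody. *Ighv* genes are grouped into subfamilies by sequence, with the subfamily as the first number of the symbol. DRGs normally hold few B cells.

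Of the 185 rows, 181 matched 1 gene each of GENCODE M21 (GRCm38), 113 of them annotated as functional V genes and 68 as pseudogenes. The other 4 rows, Ighv1-13 and Ighv5-8 with a suffix of 1 or 2, stand for symbols that M21 gives to 2 genes each and were not classified. All 181 lie on the minus strand of chromosome 12, over 2437 kb (chr12:113572927-116010093). The rows fell into 16 subfamilies, of which *Ighv1* is the largest with 93 rows.

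Because V genes resemble one another, the sequences decide how well reads can be assigned to 1 of them. The median member shared 94.1% of the bases of its V exon with its nearest relative among the 181, and 78 members shared at least 95%. Of all 50-base stretches of a member's transcript, the median member had 82.2% that occur in no other *Ighv* gene, and 17 members had fewer than 50%. How the authors handled reads that match several genes is not given in the sources used here, so counts of close relatives are uncertain. The V exons below belong to the most used genes that the results turn on, and *Ighv2-5* is added beside its relative *Ighv2-2* because their use differed between libraries. Each is the last 300 bases of exon 2 in the GENCODE M21 transcript, 5′ to 3′, and capitals mark bases that differ from the nearest member. That member is *Ighv1-63* for *Ighv1-9* (90.2% of the exon identical), *Ighv1-26* for *Ighv1-19* (96.1%), *Ighv1-72* for *Ighv1-64* (96.1%), *Ighv5-4* for *Ighv5-6* (95.1%), and *Ighv2-4* for both *Ighv2-2* (98.0%) and *Ighv2-5* (97.7%). On the minus strand of chromosome 12 they lie at chr12:114583569-114583868 (*Ighv1-9*), chr12:114708648-114708947 (*Ighv1-19*), chr12:115507545-115507844 (*Ighv1-64*), chr12:113625506-113625805 (*Ighv5-6*), chr12:113588267-113588566 (*Ighv2-2*), and chr12:113685482-113685781 (*Ighv2-5*).
Ighv1-9: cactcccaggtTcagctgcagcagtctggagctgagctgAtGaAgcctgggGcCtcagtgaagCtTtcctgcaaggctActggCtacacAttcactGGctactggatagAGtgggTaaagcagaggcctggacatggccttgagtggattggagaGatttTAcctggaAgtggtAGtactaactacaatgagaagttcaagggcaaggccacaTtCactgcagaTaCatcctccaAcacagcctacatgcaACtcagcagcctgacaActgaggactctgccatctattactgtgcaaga
Ighv1-19: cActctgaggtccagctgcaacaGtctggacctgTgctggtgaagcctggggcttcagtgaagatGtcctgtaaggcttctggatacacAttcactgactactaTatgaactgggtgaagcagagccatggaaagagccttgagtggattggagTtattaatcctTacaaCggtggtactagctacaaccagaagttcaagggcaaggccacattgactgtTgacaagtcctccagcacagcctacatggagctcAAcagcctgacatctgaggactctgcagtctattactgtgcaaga
Ighv1-64: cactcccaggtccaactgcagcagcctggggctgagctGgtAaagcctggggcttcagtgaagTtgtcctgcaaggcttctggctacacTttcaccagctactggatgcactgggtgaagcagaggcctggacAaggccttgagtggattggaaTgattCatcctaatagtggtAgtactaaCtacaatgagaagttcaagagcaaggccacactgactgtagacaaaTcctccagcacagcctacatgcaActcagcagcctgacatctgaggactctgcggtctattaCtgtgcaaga
Ighv5-6: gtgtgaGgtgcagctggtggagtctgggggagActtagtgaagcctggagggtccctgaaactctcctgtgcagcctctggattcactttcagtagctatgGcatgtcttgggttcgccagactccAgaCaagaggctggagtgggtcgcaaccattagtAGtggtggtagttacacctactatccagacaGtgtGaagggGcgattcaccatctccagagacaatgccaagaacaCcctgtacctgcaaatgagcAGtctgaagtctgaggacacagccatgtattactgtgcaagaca
Ighv2-2: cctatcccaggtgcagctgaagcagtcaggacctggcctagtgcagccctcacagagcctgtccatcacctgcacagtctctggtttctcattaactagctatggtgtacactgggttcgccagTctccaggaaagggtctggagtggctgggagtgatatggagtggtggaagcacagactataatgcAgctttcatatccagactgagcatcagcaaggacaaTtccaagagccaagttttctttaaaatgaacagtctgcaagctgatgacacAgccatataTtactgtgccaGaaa
Ighv2-5: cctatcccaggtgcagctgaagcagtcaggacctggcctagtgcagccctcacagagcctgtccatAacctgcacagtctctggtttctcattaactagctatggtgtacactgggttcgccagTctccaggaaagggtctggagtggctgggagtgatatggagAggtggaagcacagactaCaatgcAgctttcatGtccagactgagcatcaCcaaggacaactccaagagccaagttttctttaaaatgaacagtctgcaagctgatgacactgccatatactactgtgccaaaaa

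*Ighv2-2* and *Ighv2-5* shared 295 of 304 bases of the V exon. *Ighv1-9* and *Ighv1-64* shared 269 of 305 bases, and *Ighv1-9* and *Ighv5-6*, of different subfamilies, 205 of 305.

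Total counts per library were between 32025612 and 34764282. Wherever 3 values are given for a group, they follow the order of its replicates 1, 2, and 3. *Ighv* rows held 207, 59, and 46 counts under AAV5-*Gfp*, against 12432, 8467, and 7728 under AAV5-*V1+V2*. In CPM, which are counts scaled by the normalized library size, the summed level was 3.20 ± 2.79 in the AAV5-*Gfp* group and 286 ± 81.0 in the AAV5-*V1+V2* group (mean ± SD, n = 3 each), 89.4-fold apart. The groups did not overlap, and the lowest AAV5-*V1+V2* library was 35.1-fold above the highest AAV5-*Gfp* library. On the log2 scale the difference was 6.78 (exact permutation test, two-sided, p = 0.1, n = 3 each), the smallest p that 3 against 3 libraries allow. AAV5-*Gfp* replicate 1 had 3.51 and 4.5 times the *Ighv* counts of replicates 2 and 3, and without it the difference was 7.45. Without AAV5-*V1+V2* replicate 1, the highest of its group, it was 6.56. In bulk tissue, more B cells or plasma cells and more antibody RNA per cell cannot be told apart.

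**Figure D1:**
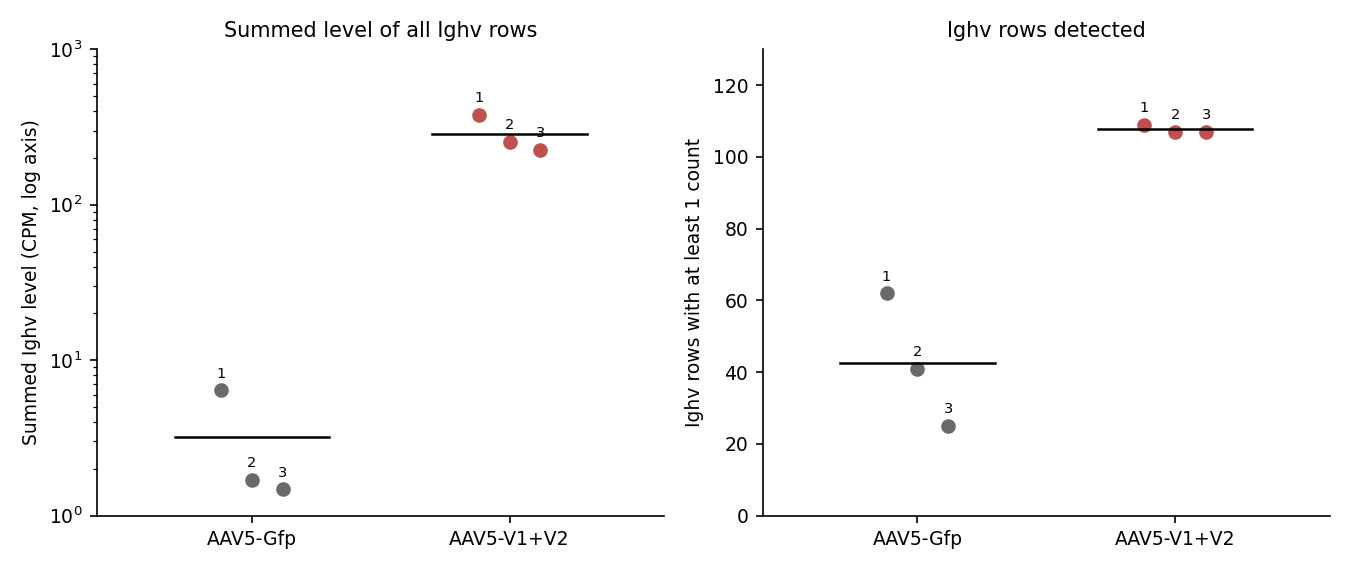
Summed *Ighv* level in CPM on a log axis (left) and number of *Ighv* rows with at least 1 count (right), with 1 point per library numbered by replicate and a line at the group mean. The AAV5-*V1+V2* libraries lie between 225 and 378 CPM with 107 to 109 rows detected, all above the AAV5-*Gfp* libraries, which lie between 1.47 and 6.41 CPM with 25 to 62 rows.

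Most functional V genes were found with AAV5-*V1+V2*. Among its libraries, 109, 107, and 107 rows had at least 1 count, and 89, 83, and 77 had at least 3. With AAV5-*Gfp*, 62, 41, and 25 rows had at least 1 count and 23, 6, and 5 had at least 3. The difference in rows with a count was 65 (means 108 ± 1.15 and 42.7 ± 18.6, n = 3 each, exact permutation test, two-sided, p = 0.1). In any AAV5-*V1+V2* library, 105 of 113 functional genes (92.9%) and 21 of 68 pseudogenes (30.9%) were seen. Of the 56 rows at 0 in all 6 libraries, 46 were pseudogenes and 8 functional genes. A count of 0 allows up to 3 counts per library and covers counting error only. Of the detected rows, 81 were found in both groups, 47 with AAV5-*V1+V2* but not AAV5-*Gfp*, and 1, with a single count, the other way round.

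Detection follows the number of *Ighv* reads, so libraries were also compared at equal numbers. At 46 reads, the smallest *Ighv* total, the expected number of distinct rows was 25.8, 33.8, and 25 under AAV5-*Gfp* against 18.8, 20.8, and 20.4 under AAV5-*V1+V2*. The order of the groups thus turned round, with 28.2 ± 4.85 rows for AAV5-*Gfp* and 19.97 ± 1.07 for AAV5-*V1+V2* (n = 3 each, exact permutation test, two-sided, p = 0.1). This comparison was chosen after the data were seen. At 7728 reads the AAV5-*V1+V2* libraries gave 103, 106, and 107 rows, still rising with the number of reads.

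**Figure D2:**
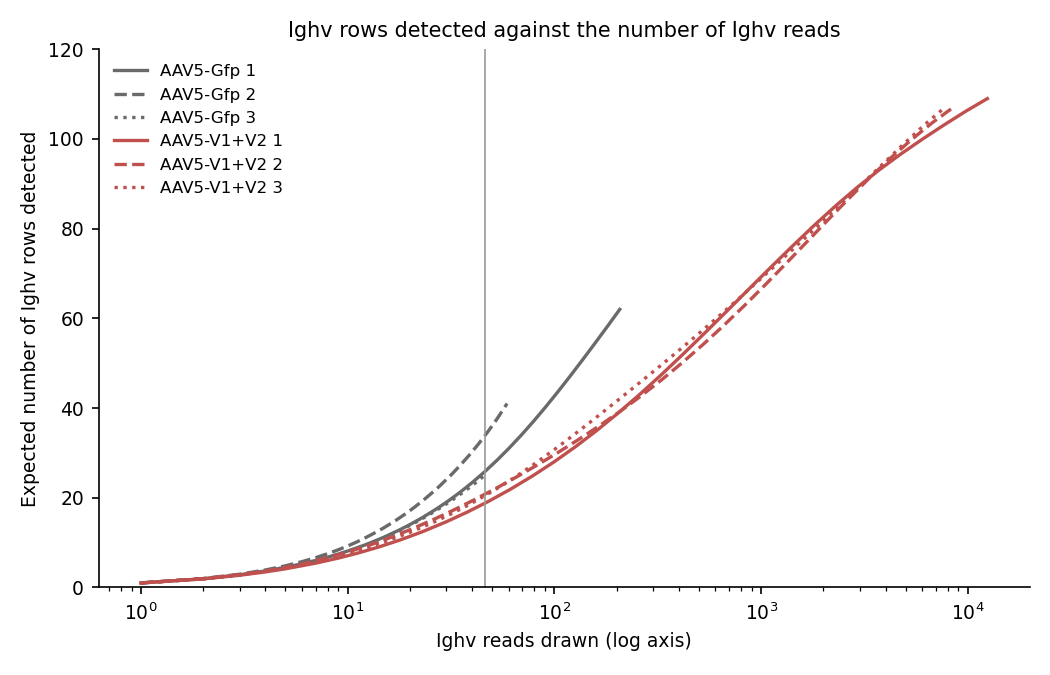
Expected number of *Ighv* rows detected (vertical axis) against the number of *Ighv* reads drawn from a library without replacement (log axis), 1 line per library. The vertical line marks 46 reads, where the 3 AAV5-*Gfp* lines lie at 25 to 33.8 rows and the 3 AAV5-*V1+V2* lines at 18.8 to 20.8 rows.

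A few genes held much of the *Ighv* counts in each AAV5-*V1+V2* library. The most used gene of each library took 26.0%, 14.6%, and 15.6% of *Ighv* counts (mean 18.7 ± 6.31, n = 3), and the 10 most used genes took 74.3%, 66.4%, and 68.5%. The effective number of genes, which is the number of equally used genes with the same Shannon entropy, was 20.8, 26.8, and 25.4 (mean 24.3 ± 3.14). Pielou evenness, which is 1 when all detected genes are used alike, was 0.647, 0.704, and 0.692. In AAV5-*Gfp* libraries it was 0.841, 0.957, and 0.902, from 207 reads or fewer, and no test was made.

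Subfamily *Ighv1* led in every AAV5-*V1+V2* library, with 74.6%, 58.3%, and 58.4% of *Ighv* counts (mean 63.8 ± 9.40, n = 3). It makes up 50.3% of the 185 rows. By mean share *Ighv2* came next (14.5%), with 9.91%, 9.84%, and 23.9%, and was highest in replicate 3. *Ighv5* held 8.02%, 13.7%, and 8.73%, and *Ighv8* 2.29%, 10.1%, and 3.88%, both highest in replicate 2, where both were above *Ighv2*. Means of *Ighv3* and *Ighv14* were 2.58% and 1.69%, and 12 of 16 subfamilies had a count in every AAV5-*V1+V2* library. With AAV5-*Gfp*, *Ighv1* held 44.9% of 207 counts (exact 95% interval 38.0% to 52.0%), 33.9% of 59 (22.1% to 47.4%), and 45.7% of 46 (30.9% to 61.0%). All 3 values lie below the lowest AAV5-*V1+V2* share, although the interval of replicate 3 reaches past it, and these intervals cover counting error only. *Ighv3* was higher in AAV5-*Gfp* replicates 2 and 3, with 13.6% and 23.9%, than in any AAV5-*V1+V2* library, whose highest share was 3.35%. *Ighv7* held 18.4% of counts in AAV5-*Gfp* replicate 1 and at most 0.386% with AAV5-*V1+V2*.

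**Figure D3:**
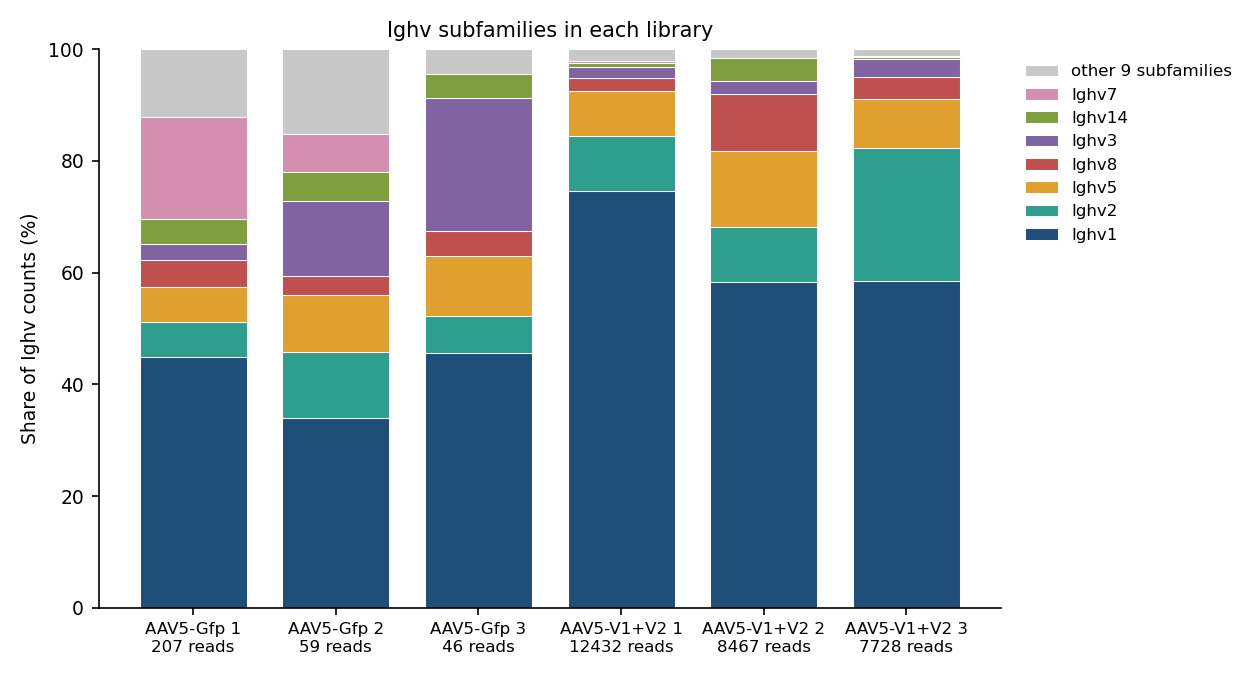
Share of *Ighv* counts (%) taken by each subfamily, stacked to 100% in each of the 6 libraries, with the number of *Ighv* reads under each bar. *Ighv1* reaches 58.3% to 74.6% in the AAV5-*V1+V2* libraries and 33.9% to 45.7% in the AAV5-*Gfp* libraries, which hold 46 to 207 reads.

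The use of individual genes varied between the AAV5-*V1+V2* libraries. The most used gene over all 3 libraries, an *Ighv1* member that is not named here, had 3227, 614, and 1204 counts, against 2, 0, and 1 with AAV5-*Gfp*. *Ighv1-9* had 1489, 1232, and 153 counts, 11.98%, 14.6%, and 1.98% of *Ighv* counts, against 3, 0, and 3 with AAV5-*Gfp*. *Ighv1-19* had 347, 465, and 901 counts (2.79%, 5.49%, and 11.7%) against 5, 1, and 0. *Ighv1-9* was thus low in replicate 3, where *Ighv1-19* was highest, and the groups did not overlap for either gene.

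*Ighv5-6*, the leading gene of its subfamily, was among the steadiest, with 560, 717, and 342 counts (4.505%, 8.47%, and 4.43%) against 1, 0, and 1. *Ighv8-12*, the leading *Ighv8* gene, had 226, 647, and 108 counts against 2, 0, and 0. *Ighv1-64* had 573, 717, and 71 counts against 1, 0, and 0. The last of these was low in replicate 3 only, at 0.919% of *Ighv* counts. *Ighv1-53* had 403, 276, and 117 counts against 2, 3, and 4, one of 5 members with a count in all 6 libraries.

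The close relatives *Ighv2-2* and *Ighv2-5*, whose V exons are printed above, differed in which libraries used them most. *Ighv2-2* had 995, 115, and 469 counts under AAV5-*V1+V2*, or 8.004%, 1.36%, and 6.07% of *Ighv* counts. *Ighv2-5* had 25, 54, and 1012 counts, or 0.201%, 0.638%, and 13.1%. With AAV5-*Gfp* each had a single count, in replicate 2. *Ighv2-5* was the second most used gene of AAV5-*V1+V2* replicate 3, and 92.8% of its AAV5-*V1+V2* counts came from that library.

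Other genes were also carried by a single library. *Ighv1-54* had 13, 2, and 582 counts under AAV5-*V1+V2*, against 1, 0, and 0 under AAV5-*Gfp*. Of the 39 rows with at least 100 counts over the AAV5-*V1+V2* libraries, 10 had at least 80% of them in 1 library. The largest share was at least 5 times the smallest, or a library was at 0, in 26 of the 39, and it was under 2 times the smallest in 2. The most used *Ighv3* gene, *Ighv3-6*, had 60, 186, and 78 counts, and the most used *Ighv14* gene, *Ighv14-3*, had 36, 229, and 13. Transcripts of the 10 most used genes were 351 to 480 bases long, and the same 10 genes led when counts were divided by length.

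**Figure D4:**
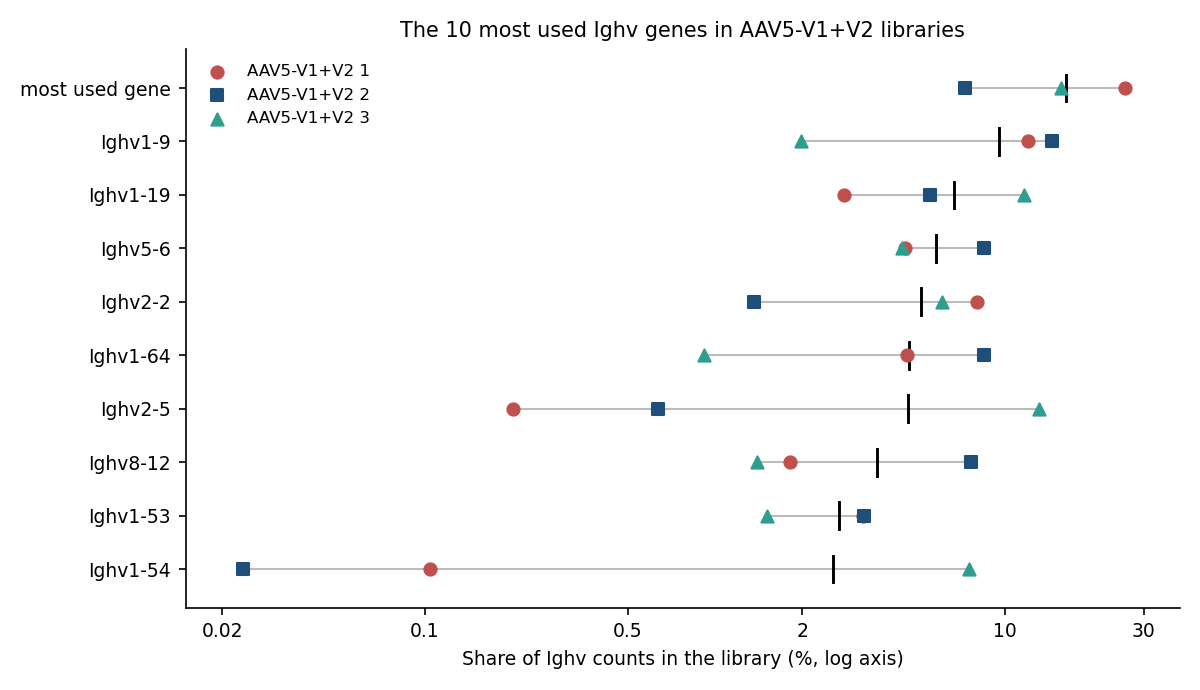
Share of *Ighv* counts (%, log axis) of the 10 genes with the largest mean share over AAV5-*V1+V2* libraries, with 1 symbol per library, a grey line from the lowest to the highest, and a black tick at the mean. *Ighv5-6* spans 4.43% to 8.47%, whereas *Ighv2-5* spans 0.201% to 13.1% and *Ighv1-54* 0.0236% to 7.53%.

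Usage was set side by side between libraries as the overlap of shares, summing over genes the smaller of both shares, which gives 100% for the same usage. AAV5-*V1+V2* replicates 1 and 2 overlapped by 54.7%, 1 and 3 by 49.3%, and 2 and 3 by 42.2% (mean 48.7). By subfamily the overlaps were 82.6%, 82.1%, and 84.6%, a sum that cannot be below that over genes. Sharing of detection was wider, since 84 rows had a count in all 3 AAV5-*V1+V2* libraries and held 97.9% of their *Ighv* counts. Another 27 rows were seen in 2 libraries and 17 in 1, with 1.63% and 0.482% of counts. Among the 10 most used genes, replicates 1 and 2 shared 6, replicates 1 and 3 shared 5, and replicates 2 and 3 shared 4. Of the 19 genes that were among the 10 most used of any library, 4 were so in all 3, among them *Ighv1-9*, *Ighv1-19*, and *Ighv5-6*. With AAV5-*Gfp*, 5 rows had a count in all 3 libraries, 36 in 2, and 41 in 1.

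The few AAV5-*Gfp* counts were spread differently. In replicate 1, *Ighv7-3* had 35 counts, *Ighv1-82* 27, and *Ighv11-2* 15, together 37.2% of its 207 *Ighv* counts. *Ighv7-3* had 1 and 0 counts in the other AAV5-*Gfp* libraries, against 42, 7, and 8 under AAV5-*V1+V2*. *Ighv11-2*, which is known from antibodies of B-1 cells to phosphatidylcholine, had no count in those libraries and 10, 3, and 0 under AAV5-*V1+V2*. For both of these genes the groups overlapped. *Ighv1-82* had 3 and 0 counts in the other AAV5-*Gfp* libraries and 116, 324, and 45 with AAV5-*V1+V2*. *Ighv3-6* led replicate 3 with 10 counts and had 4 in each of the others. *Ighv2-9* had 9, 3, and 3 counts, against 50, 247, and 218 under AAV5-*V1+V2*.

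The placed rows were divided along the locus into 3 parts of nearly equal size. The placed *Ighv2* and *Ighv5* rows lie in the part nearest to the diversity and joining segments, and the *Ighv1* rows in the others. The proximal part (61 rows, *Ighv5-1* to *Ighv5-21*) held 21.1%, 31.3%, and 37.0% of *Ighv* counts under AAV5-*V1+V2*. In AAV5-*Gfp* libraries it held 46.9% (exact 95% interval 39.9% to 53.9%), 47.5% (34.3% to 60.9%), and 45.7% (30.9% to 61.0%), above each AAV5-*V1+V2* library, although the intervals of replicates 2 and 3 reach below the highest of these. The middle part (60 rows) held 29.3%, 26.9%, and 27.4%, and the distal part (60 rows) 49.6%, 41.8%, and 35.6%, with AAV5-*V1+V2*. Without the most used gene, which is in the distal part, the distal shares were 31.9%, 37.2%, and 23.7%, and overlapped those of the AAV5-*Gfp* libraries (32.2%, 23.7%, and 28.9%). Without it the proximal shares were 28.4%, 33.7%, and 43.9% with AAV5-*V1+V2*, against 47.3%, 47.5%, and 46.7%. The 43.9% lies within all 3 AAV5-*Gfp* intervals given above, which are for the shares with that gene.

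**Figure D5:**
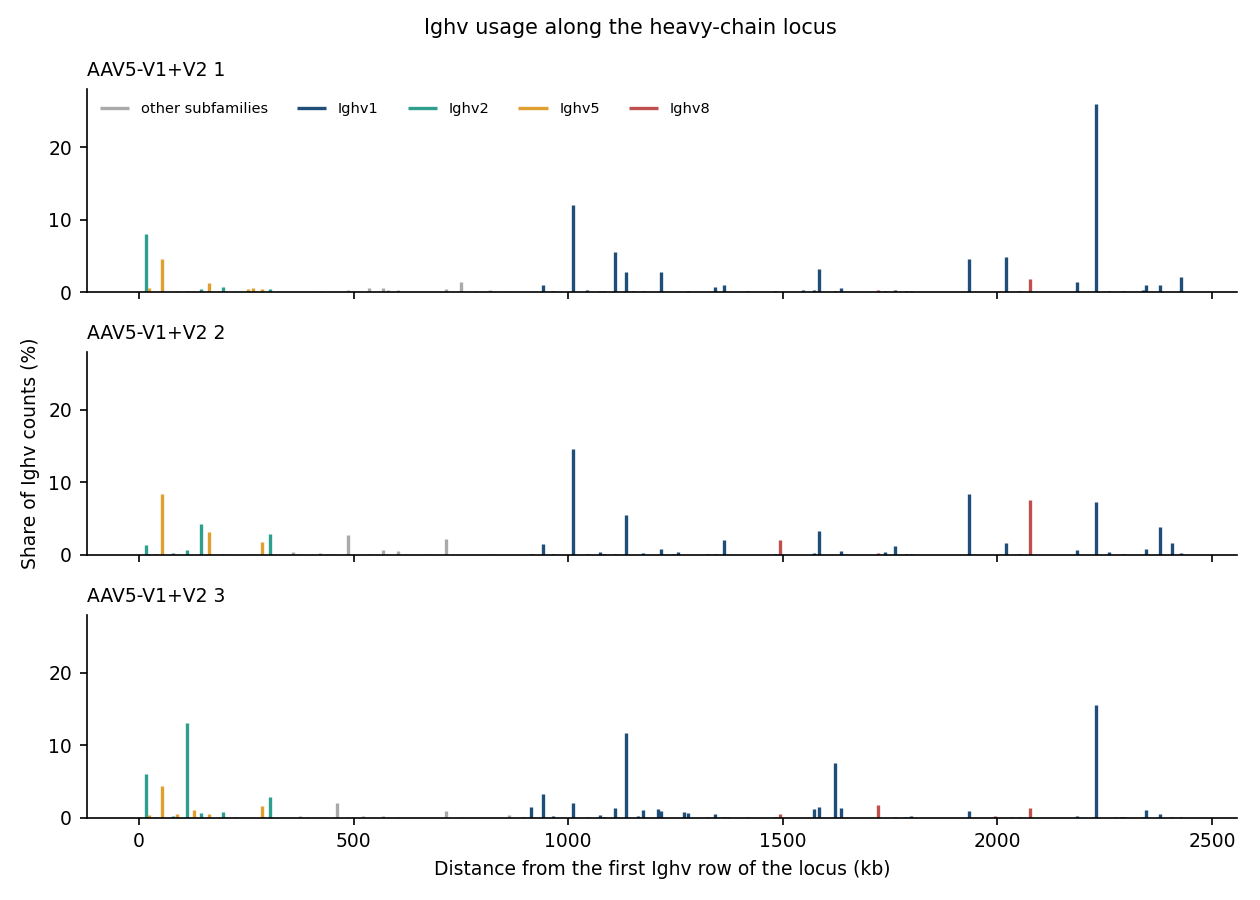
Share of *Ighv* counts (%) of each of the 181 placed rows against its distance in kb from the first row of the locus, the one nearest to the joining segments, in the 3 AAV5-*V1+V2* libraries, with subfamilies in color. *Ighv2* and *Ighv5* bars lie in the first part of the 2437 kb and *Ighv1* bars in the rest, and the tall bars differ between libraries.

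Pseudogenes held few of the counts of AAV5-*V1+V2* replicates 1 and 2 and more of those of replicate 3. They had 51 and 72 counts in the former (0.410% and 0.850% of *Ighv* counts) and 401 in replicate 3 (5.19%). In that library 314 of the 401 lay on *Ighv3-2*, *Ighv1-25*, and *Ighv1-33*, with 160, 91, and 63 counts, and the other pseudogenes held 1.13%. These 3 genes, named after their values were seen, had 0 to 2 counts in replicates 1 and 2. *Ighv3-2* shared 94.8% of its V exon with *Ighv3-1*. In AAV5-*Gfp* libraries pseudogenes held 5.80%, 3.39%, and 2.17% of *Ighv* counts, from 12, 2, and 1 counts. The share of AAV5-*V1+V2* replicate 3 lies within that range, and those of replicates 1 and 2 lie below it.

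Across all genes, edgeR's quasi-likelihood test (Benjamini-Hochberg adjusted p under 0.05) covered 18593 rows and called 10.1% higher and 5.27% lower with AAV5-*V1+V2*. Of the 185 *Ighv* rows, 35 passed the filter on low counts, 34 were called higher, and none lower, with 35 higher and 0 lower at an unadjusted p under 0.05, and 33 higher and 0 lower by DESeq2. No tested member reached the filter level in all 3 AAV5-*Gfp* libraries, although *Ighv1-82*, with 27 counts in replicate 1, reached it there. Each thus passed through its AAV5-*V1+V2* counts, which favors a difference, and these counts describe the list only. For all 35 of them, every AAV5-*V1+V2* library lay above every AAV5-*Gfp* library. Passing the filter through AAV5-*V1+V2* counts already favored this order. The 35 therefore cannot be set against the 23.4% of all genes tested that had the same order. This order held for 71 of all 185 rows, some of them with only 1 to 3 counts per AAV5-*V1+V2* library. No row was the other way round. The share over all 48440 rows is not given here for either direction, so the 71 cannot be set against the 23.4%. Fitted log2 fold changes of the 35 were between 3.97 and 10.5, with a median of 6.83. The median over all genes tested was 0.00, but the filter favored large changes among the 35, so the medians do not measure enrichment. Adjusted p-values of single *Ighv* members below carry the same limit.

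For 26 of the 35, every AAV5-*Gfp* library had at most 3 counts, and the fold is given as a lower bound against 3 counts per library. It sets the mean CPM of the AAV5-*V1+V2* group against that level and so bounds the ratio of the observed group means only. Single libraries can lie far below it, and 1 high library can set it, as for *Ighv2-5* with 25, 54, and 1012 counts. *Ighv1-9* was at least 315-fold higher (edgeR adjusted p = 0.0144), *Ighv5-6* at least 176-fold (adjusted p = 0.00125), and *Ighv2-2* at least 172-fold (adjusted p = 0.0144). Lower bounds were 149-fold for *Ighv1-64* (adjusted p = 0.0144), 107-fold for *Ighv8-12* (adjusted p = 0.0144), and 116-fold for *Ighv2-5* (adjusted p = 0.0378), the last with a standard error of 2.35 on the log2 scale. *Ighv1-19*, with up to 5 counts with AAV5-*Gfp*, was higher by 8.03 ± 0.66 (log2, SE, adjusted p = 0.00533), and *Ighv1-53* by 6.38 ± 0.63 (adjusted p = 0.00872). The smallest change, that of *Ighv1-82*, was 3.97 ± 1.09 (adjusted p = 0.0492). *Ighv3-6* was higher by 4.10 ± 0.60 (adjusted p = 0.0144).

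*Ighv2-5* and *Ighv1-82* were not called by DESeq2. Among the 34 called, *Ighv1-14* is annotated as a pseudogene, with 4, 0, and 0 counts against 13, 38, and 29 (4.16 ± 0.86, edgeR adjusted p = 0.0251), and it is named after its values were seen. *Ighv1-85* was the 1 tested member that edgeR did not call, with 255, 28, and 13 counts against 0 in all AAV5-*Gfp* libraries (edgeR adjusted p = 0.0648), and DESeq2 and the fit with a replicate block did call it. *Ighv1-54*, with 582 of its counts in 1 library, did not pass the filter and was not tested. *Ighv1-72*, named after its values were seen, had 175, 58, and 15 counts against 0. Only 7.49% of its 50-base stretches are unique to it, so that its count is uncertain. The number of calls depended on having 3 AAV5-*Gfp* libraries. Fitted log2 fold changes over all alternatives were between 5.94 and 6.76 for *Ighv1-53* and between 7.50 and 9.81 for *Ighv1-19*. Other members had wider ranges, such as 6.43 to 11.4 for *Ighv2-5* and 2.97 to 6.63 for *Ighv1-82*. Without AAV5-*Gfp* replicate 1, 2, or 3, members called higher were 11 of 56, 2 of 58, and 2 of 58 tested, while higher calls over all genes fell from 1872 to 257, 12, and 15. The 2 that were called without replicate 2 and without replicate 3 were *Ighv5-6* and *Ighv1-5*, the latter named after its values were seen and overlapped on the same strand by the microRNA gene *Mir7094-2*.

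Most of the constant regions to which V genes are joined were also higher, where 10.1% of all genes tested were called higher. Of 8 heavy-chain constant genes, 7 were tested and 6 rose (median log2 fold change 6.88), and their summed level was 18.6 to 44.6 CPM in AAV5-*Gfp* libraries against 1153 to 1779 CPM in AAV5-*V1+V2* libraries. *Ighg2c*, a constant region of secreted IgG, had 91, 42, and 53 counts under AAV5-*Gfp*, against 24620, 19225, and 16558 under AAV5-*V1+V2* (log2 fold change 8.31 ± 0.33, adjusted p = 0.000303). *Ighg2b* and *Ighg3*, of other IgG subclasses, rose by 8.08 ± 0.46 and 8.48 ± 0.38 (adjusted p = 0.00118 and 0.000319). *Ighg3* had only 1, 2, and 2 counts with AAV5-*Gfp*, against 560, 501, and 905. It passed the filter through its AAV5-*V1+V2* counts, so its fold and adjusted p carry the limit given for the *Ighv* members. *Igha*, the constant region of IgA, had 61, 83, and 44 counts against 9914, 5816, and 6916 (6.88 ± 0.29, adjusted p = 0.000303). *Ighm*, which naive B cells use first, had 635, 444, and 363 counts against 4128, 2490, and 1763 (2.51 ± 0.35, adjusted p = 0.0144). *Ighm* thus held 44.1% to 66.8% of heavy-chain constant counts under AAV5-*Gfp* against 4.46% to 7.05% under AAV5-*V1+V2*, and *Ighg2c* held 6.32% to 9.12% against 41.8% to 49.4%. *Ighg1* was not called (499, 14, and 35 counts against 1300, 3041, and 1524, adjusted p = 0.0648), and its highest AAV5-*Gfp* count was in replicate 1, the library with the most *Ighv* counts. *Ighe* had 3 to 6 counts with AAV5-*V1+V2* and 0 with AAV5-*Gfp*. Per 100 heavy-chain constant counts there were 14.4, 8.87, and 7.92 *Ighv* counts under AAV5-*Gfp*, against 21.2, 21.7, and 19.5 under AAV5-*V1+V2*, without overlap.

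Markers of the cells that carry joined V genes moved in the same comparison, again beside 10.1% of all genes tested called higher. All 8 B cell receptor and surface genes rose (median log2 fold change 3.36, summed level 16.8 to 24.4 CPM against 112 to 254 CPM), among them the B cell receptor chain *Cd79b* (3.24 ± 0.36, adjusted p = 0.0138). Of 8 plasma cell genes, 7 rose (median 1.83, 59.7 to 67.0 CPM against 126 to 171 CPM), including *Mzb1*, an endoplasmic reticulum protein of plasma cells (5.20 ± 0.54, adjusted p = 0.0103). *Mzb1* had 11, 5, and 1 counts against 309, 162, and 178, so it too needed its AAV5-*V1+V2* counts to pass the filter. *Tnfrsf17* did not pass (adjusted p = 0.0883). The joining chain *Jchain* of polymeric antibodies had 125, 36, and 47 counts against 6375, 6017, and 5792, and all 3 tested genes of its list of 5 rose (median 4.403, 2.34 to 5.86 CPM against 186 to 219 CPM), with *Iglc1* at 0 in all 6 libraries. The other untested gene of that list had 3, 1, and 0 counts with AAV5-*Gfp* and 0 in each AAV5-*V1+V2* library.

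The genes that join V segments had few counts in both groups. *Rag1* and *Rag2*, the recombinase, had at most 2 counts in any library. Of the 8 recombination and mutation genes, 6 were tested and 1 passed, higher under AAV5-*V1+V2*, and the median of the 6 was 0.28 on the log2 scale, with summed levels of 59.8 to 60.0 CPM and 62.7 to 64.6 CPM. With 10.1% of all genes tested called higher, 1 of 6 is not read as a change of the list. Of 6 B cell precursor genes, 3 were tested and 2 rose, *Vpreb3* and *Il7r* (median 2.07). Their summed levels, 480 to 595 CPM and 451 to 557 CPM, overlapped and came mostly from *Ebf1*, which did not pass (adjusted p = 0.322).

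T cell genes rose in 7 of 8 (median 3.06, 3.49 to 9.98 CPM against 33.9 to 75.8 CPM). None of 5 erythrocyte genes passed (median 0.11, 889 to 1067 CPM against 831 to 1249 CPM), nor did any of 6 satellite glia and Schwann cell genes (median 0.00, 4714 to 5706 CPM against 5133 to 5343 CPM). Of 7 sensory neuron genes, 1 fell, *Rbfox3*, a nuclear protein of mature neurons (log2 fold change -0.93 ± 0.19, adjusted p = 0.0256). Over all genes tested, 10.1% were called higher and 5.27% lower, so 1 of 7 is not read as a change of the neuron list. That list had a median of -0.31, and its summed levels of 4359 to 4728 CPM against 2738 to 3925 CPM did not overlap. How often genes in general had that order is not given here. AAV5-*V1+V2* replicate 1 had the lowest neuronal and the highest B cell, T cell, and *Ighv* levels of its group. The part of these markers in the *Ighv* counts was not tested.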

How the data were processed

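RNA was sequenced from DRGs of 6 samples, 3 per group, with stranded total RNA libraries. Deposited by the authors were whole-number counts of reads for each gene symbol, not normalized. Aligner, counting program, annotation, use of strand, and handling of reads that match several genes are not given in the sources used here. The submitters' processing notes name GRCm38 (mm10), a C57BL/6J assembly, while the paper describes such microinjection in CD1 mice, an outbred stock. Groups were taken from the sample titles.

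The whole table was fitted in R 4.3.3 with edgeR 4.0.16 (filterByExpr with the group, TMM, glmQLFit and glmQLFTest, no covariate), and p-values were adjusted over all 18593 genes tested. Standard errors were derived from each coefficient and its F statistic. Shares are percentages of the *Ighv* counts of a library. Intervals are exact (Clopper-Pearson, 95%) and cover counting error only. Per-library values were compared by exact permutation tests in Python 3.11.15 (scipy 1.17.1), and the summed level as log2(CPM + 0.01). Sequences and gene types came from GENCODE M21, and V exons were aligned with Biopython 1.88. The edgeR steps were tried on counts simulated from the mean levels and fitted spread of these libraries, with 200 of 18593 genes changed. The outcome is not given here. Within groups, chi-square values per degree of freedom between libraries were 8.27 to 48.9, so none was counted as a duplicate.

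Members and gene lists were chosen with earlier results of these data known. Named were the 10 members with the largest mean share over AAV5-*V1+V2* libraries, the 3 most used of each such library, the leading gene of each subfamily with a mean share of at least 1%, the 5 highest of those with at least 3 counts in an AAV5-*Gfp* library, and members tested but not called. Of the marker lists, at most 4 genes each with the smallest adjusted p were to be named, and *Ighm*, *Ighg1*, *Ighe*, *Iglc1*, *Tnfrsf17*, *Rag1*, *Rag2*, and *Ebf1* were named after their values were seen. One member that this rule selects is not reported here by name, and 1 gene of the marker lists is not reported here. Alternatives were RLE or total-count scaling, other filters, a 2-fold threshold, DESeq2 1.42.0, a replicate block, other detection minimums, other measures of diversity, and leaving out each library. Equal numbers of reads in all 6 libraries were added after the data were seen.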

Additional observations from a re-analysis of the deposited data

How the results depend on the processing

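The number of *Ighv* genes called higher (34) was 33 to 35 under RLE or total-count scaling, a minimum of 10 counts in 3 libraries, a 2-fold threshold, DESeq2, and the replicate block, and none was called lower under any alternative. Each of these settings tested 35 members, and higher calls over all genes were 1052 to 2405. Without a filter on low counts it was 61 of 129, against 2104 of 30623 over all genes. As above, the counts of members called describe the list only. Leaving out 1 library gave 2 to 44, lowest without AAV5-*Gfp* replicate 2 or 3 and highest without AAV5-*V1+V2* replicate 3. Higher calls over all genes then were 12 to 2474, lowest without AAV5-*Gfp* replicate 2 and highest without AAV5-*V1+V2* replicate 3. The cause was not tested. The replicate block gave 35 called and a summed difference of 6.78 (exact permutation test within pairs, p = 0.25, the smallest possible). Deviations of same-numbered libraries from their group means correlated by 0.036, 0.066, and 0.107 over 18593 genes, and the numbers were not taken to pair the samples. AAV5-*V1+V2* replicate 1 correlated best with AAV5-*Gfp* replicate 2. The summed difference was 6.39 to 7.45 over all alternatives.

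At 46 reads in every library, an alternative chosen after the data were seen, the difference in rows detected turned from 65 to -8.22. What turned the order of the groups round was not tested. At 7728 reads AAV5-*V1+V2* libraries held 105 rows on average. With at least 10 counts, 35 rows in place of 84 were shared by all 3. The effective number was 13.4 by the inverse Simpson index in place of 24.3. Overlap of usage was 83.1% by subfamily and 42.2% to 54.7% when a library was left out.

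Depth limits the AAV5-*Gfp* side. With 46 to 207 *Ighv* reads, shares of subfamilies there are known within intervals of 14 percentage points or more for *Ighv1*, and shares of single genes less well.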
